A study of Mus musculus with 16 samples.

Results

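Wnt ligands, their receptors and the secreted proteins that hold them in check were followed through healing mouse wounds with and without mechanical load. The set was chosen by name: every probe set whose single gene symbol in the platform annotation was Wnt, Fzd, Sfrp, Dkk or Rspo with a number, or Wif1, Axin2, Lrp5 or Lrp6. It held 85 of the 45101 probe sets on the array, and 34945 probe sets with a single symbol were tested beside it. The 85 probe sets stood for 45 genes of 18193: 19 Wnt ligands (32 probe sets), 4 R-spondins (6), 10 Frizzled receptors (26), the co-receptors Lrp5 and Lrp6 (3), 4 secreted frizzled-related proteins (9), 4 Dickkopf proteins (6), Wif1 (1) and the target gene Axin2 (2). For 26 genes there were several probe sets, and 19 genes had 1.

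RNA came from dorsal incisional wounds of wild-type C57BL/6 mice, labelled as female, in a model of hypertrophic scarring, and was hybridized to 16 Affymetrix arrays. The groups were unstressed and stressed wounds taken on day 6, when stressed wounds had been loaded for 48 hours, and unstressed and stressed wounds taken on day 14, after 10 days of loading. Each group held 4 arrays, and the design gives 4 mice per group and time point. No age or further allele is named in the labels, and the sample is whole wound tissue, so fewer cells of a type and less RNA per cell cannot be told apart. Values are the authors' log-scale signals, read here as log2 and centred per probe set, so a value shows how an array compares with the others and gives no amount. For the same reason, whether the defining markers of skin or of any other cell type were present or absent could not be judged. A probe set was called where its adjusted p in limma was under 0.05, adjusted over all 34945 probe sets.

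Wnt proteins are secreted, lipid-modified signals that bind a Frizzled receptor together with Lrp5 or Lrp6. In the branch known best, this keeps beta-catenin from being degraded, so that it enters the nucleus and switches on TCF/LEF target genes such as Axin2. Other branches act on cell polarity and calcium without beta-catenin. R-spondins raise the number of Frizzled receptors at the surface, secreted frizzled-related proteins and Wif1 bind Wnts outside the cell, and most Dickkopf proteins bind Lrp5 and Lrp6. In skin the pathway is known for its part in hair follicle formation and growth and in the activity of dermal fibroblasts.

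The arrays of day 14 fell into 2 classes that cut across loading. Replicates 3 and 4 of both day 14 groups had a mean Xist signal of 4.38 to 5.39 over 3 probe sets, against -0.38 to 0.52 on the other 12 arrays. Their mean signal over 9 probe sets of 3 Y-linked genes was -1.68 to -1.34, against -0.21 to 0.27 elsewhere. All arrays carry the label female, so at least some went against it. High Xist with low Y-linked signal goes with that label. The other 12 arrays, all 8 of day 6 among them, are thus those at odds with it. Centred values give no amounts, so the sex of single arrays was not settled. Xist is made from the inactive X chromosome, and both classes held 2 unstressed and 2 stressed arrays at day 14. Loading results at day 14 are therefore given over all arrays and within each class. Time results are given over all arrays unless a class is named. At day 6 all 8 arrays were of low Xist, so that in the high class time and class cannot be told apart.

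At day 6, after 48 hours of loading, no member was called between stressed and unstressed wounds (0 of 85, where 0.0258% of all probe sets were called, 9 of 34945). At an unadjusted p under 0.05 there were 8 of 85 members, and 1982 of all 34945 probe sets. With quantile normalization 4 members were called (1.42% of all probe sets), and with array weights 4 (1.69%). The median difference over the members was 0.07, against 0.00 over all probe sets, and 57 members were positive and 28 negative. In 6 of 85 members the groups did not overlap, where this held for 6.16% of all probe sets. The 6 were Wnt2, Wnt9a, Sfrp1, Dkk2 and Dkk3, all higher in stressed wounds, and Rspo4, lower.

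The widest loading difference of day 6 was that of Wnt2, a ligand of the beta-catenin branch. Its unstressed arrays read 0.38, -0.75, -0.62 and -1.01, and its stressed arrays 1.59, 2.52, 0.47 and 0.57. Every stressed array lay above every unstressed one, although the nearest pair was close. The difference was 1.79 (SE 0.42, adjusted p = 0.28 in limma, n = 4 per group). It passed with quantile normalization (adjusted p = 0.034) and with array weights (adjusted p = 0.045).

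Wnt9a, another ligand, read -0.47, -0.07, -0.22 and 0.07 in unstressed wounds at day 6 with 1 of its 2 probe sets, and 0.97, 0.28, 0.77 and 1.23 in stressed wounds. The groups did not overlap, and the difference was 0.98 (SE 0.29, adjusted p = 0.48 in limma), while the other Wnt9a probe set differed by 0.15. Sfrp1, a soluble Wnt binder, had 5 probe sets, of which only 1 separated the groups, at 0.59 (SE 0.17, adjusted p = 0.44). Dkk3, a divergent Dickkopf protein that does not bind the Lrp co-receptors as Dkk1 does, differed by 0.68 (SE 0.21, adjusted p = 0.52) with 1 probe set and by 0.59 with the other. With quantile normalization these 3 genes passed too, Wnt9a at an adjusted p of 0.031, Sfrp1 at 0.034 and Dkk3, with the probe set that differed by 0.68, at 0.048. The array weights also passed Wnt9a (0.021) and Sfrp1 (0.026) and added 1 of 2 Wnt4 probe sets (0.037), lower in stressed wounds.

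Toward the other side, both probe sets of Wnt4, a ligand of the epidermis and the follicle, differed by -0.68 and -0.58 (adjusted p = 0.59 and 0.88). Lrp5, a Wnt co-receptor best known from bone, differed by -0.70 (adjusted p = 0.82), and both Wnt7b probe sets by -0.54 and -0.38. Axin2, the feedback inhibitor that beta-catenin switches on, differed by -0.14 and -0.33 with its 2 probe sets (smallest adjusted p 0.94). None of these was called in limma.

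**Figure D1:**
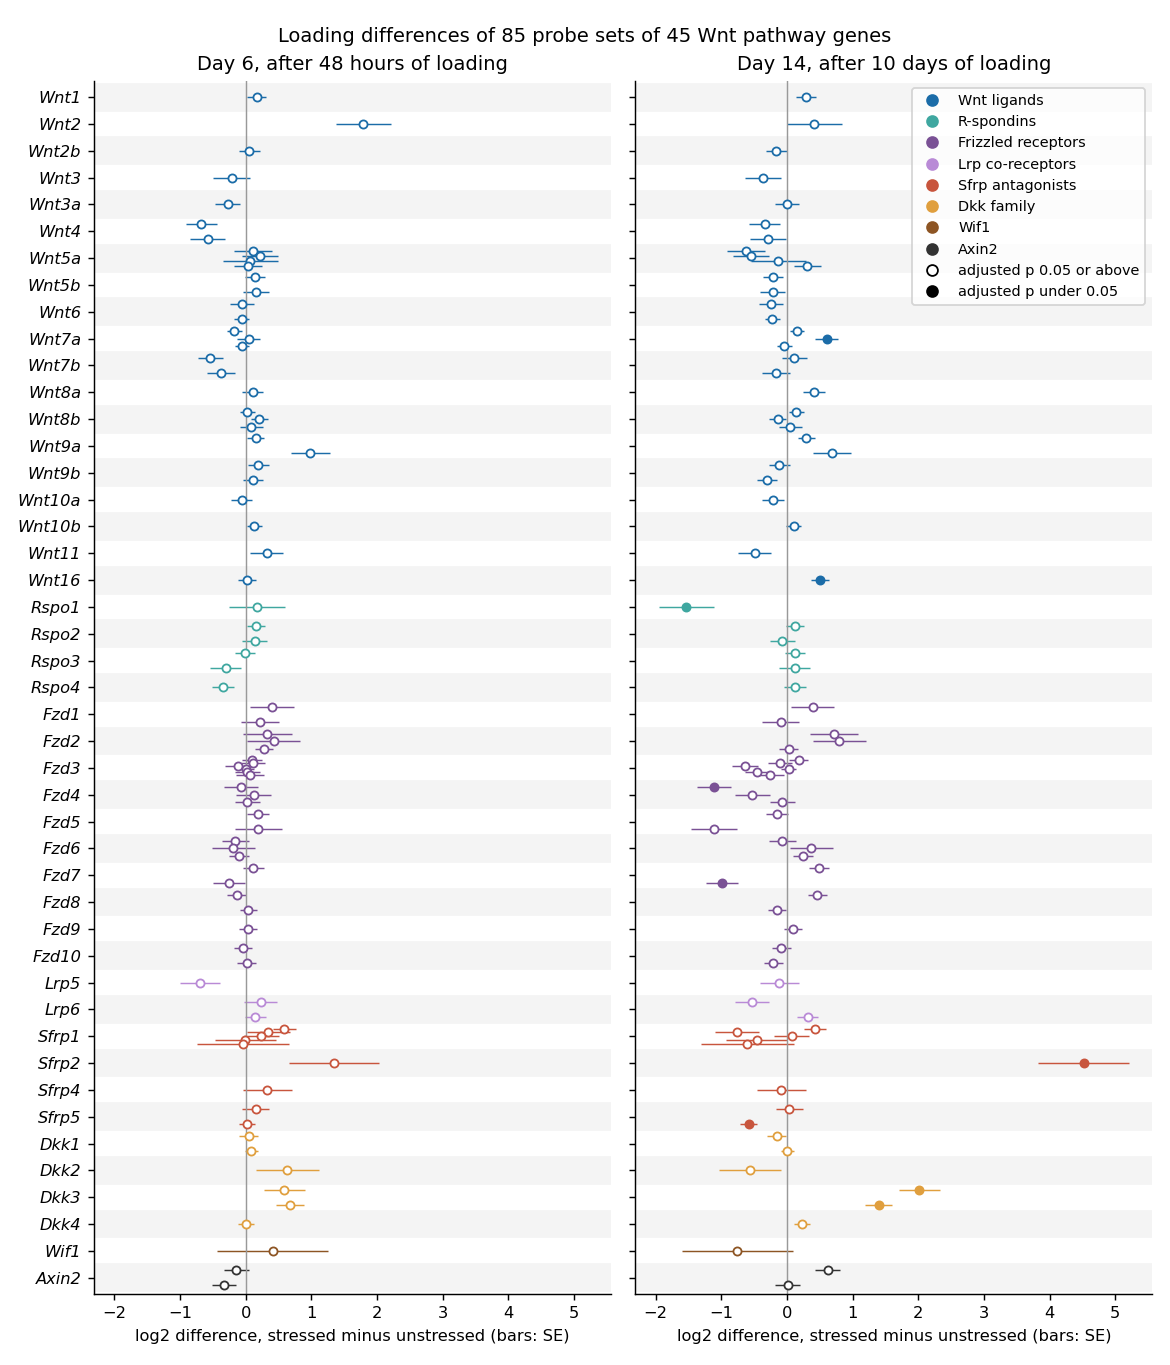
Difference between stressed and unstressed wounds (log2 scale, stressed minus unstressed, bars are the SE of the fit) of each of the 85 probe sets, by gene and coloured by family, at day 6 on the left and day 14 on the right, with 4 arrays per group. Filled points were called at an adjusted p under 0.05: none at day 6, and 9 at day 14, from 4.52 for Sfrp2 to -1.53 for Rspo1.

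At day 14, after 10 days of loading, 9 of 85 members were called (10.6%), where 7.35% of all probe sets were called. Of these, 5 were higher in stressed wounds (3.31% of all probe sets) and 4 were lower (4.04%). They belonged to 8 genes. The only probe sets of Sfrp2 and Wnt16, both of Dkk3 and 1 of 3 of Wnt7a were higher. The only probe set of Rspo1, 1 of 3 of Fzd4, 1 of 2 of Fzd7 and 1 of 2 of Sfrp5 were lower, and the other Fzd7 probe set differed by 0.49, not called. The median over the members was -0.07, against 0.01 over all probe sets, with 40 members positive and 45 negative. Groups did not overlap in 10 members (11.8%), against 10.1% of all probe sets.

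Sfrp2, a secreted frizzled-related protein made by fibroblasts, changed the most. Its unstressed arrays at day 14 read -1.72, -2.45, -5.13 and -4.38, and its stressed arrays -0.66, 1.71, 1.46 and 1.88. No stressed array reached down to the unstressed ones, and stressed replicate 1 lay apart from the other 3. Loading raised it by 4.52 (SE 0.69, adjusted p = 0.0022, limma), which is 22.9-fold if the values are log2. That SE rests on a spread pooled over all arrays. The SDs of unstressed and stressed wounds were 1.60 and 1.18 at day 14, and 0.86 and 0.38 at day 6. The difference was 2.61 between the arrays of low Xist and 6.43 between those of high Xist, and it was called in both. At day 6 the same probe set differed by 1.34 in the same direction, not called. The 300 bases around its start are shown because Sfrp2 had the widest loading difference of the set. They come from RefSeq, build GRCm38.p6, chr3:83766071-83766370, plus strand, 250 bases before to 50 after the start of the gene. They held none of the motifs searched, so no letter is in capitals.
Sfrp2: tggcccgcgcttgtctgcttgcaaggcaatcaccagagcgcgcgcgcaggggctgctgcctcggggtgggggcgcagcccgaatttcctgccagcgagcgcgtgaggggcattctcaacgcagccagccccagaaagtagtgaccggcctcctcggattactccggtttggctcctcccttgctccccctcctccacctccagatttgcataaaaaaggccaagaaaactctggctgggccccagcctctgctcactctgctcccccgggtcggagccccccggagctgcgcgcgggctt

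Dkk3 rose with both of its probe sets. With the first, which differed more, the unstressed arrays read -1.13, -1.57, -1.26 and -1.52, and the stressed arrays 1.49, 1.09, -0.25 and 0.24. The unstressed arrays lay close together and below every stressed array, and the 2 stressed arrays of low Xist were the highest. The difference was 2.02 (SE 0.32, adjusted p = 0.0025), and with the other probe set it was 1.39 (SE 0.21, adjusted p = 0.0022, limma). Within the low and the high class it was 2.64 and 1.39 with the first probe set and 1.57 and 1.22 with the second, all called.

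Sfrp5, another soluble Wnt binder, went the opposite way to Sfrp2. With 1 of its 2 probe sets it read 0.86, 0.60, 0.40 and 0.81 in unstressed wounds of day 14, and 0.13, 0.20, 0.0041 and 0.0037 in stressed wounds. The groups did not overlap. Loading lowered it, with a difference of -0.58 (SE 0.13, adjusted p = 0.014, limma), alike in the low class (-0.56) and the high class (-0.60). Its other probe set differed by 0.04. Sfrp1 was not called: its 5 probe sets ran from -0.76 to 0.43, and 2 of them were lower with loading among arrays of low Xist (-1.77 and -1.89, called there) and not among those of high Xist (0.24 and 0.96). Sfrp4 differed by -0.08.

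Among the ligands, Wnt16 read -0.33, 0.14, -0.30 and -0.24 in unstressed and 0.32, 0.56, 0.16 and 0.27 in stressed wounds of day 14. The stressed arrays lay above the unstressed ones by a narrow margin. The difference was 0.51 (SE 0.14, adjusted p = 0.038, limma), with 0.53 in the low and 0.48 in the high class, neither called alone. Wnt7a, known for patterning the back of the limb, read 0.87, 1.04, 0.44 and 0.71 in unstressed and 1.66, 1.53, 1.36 and 0.93 in stressed wounds with 1 of its 3 probe sets. Here the groups overlapped, as stressed replicate 4 lay under unstressed replicate 2. The difference was 0.60 (SE 0.17, adjusted p = 0.045), and the other 2 Wnt7a probe sets differed by 0.15 and -0.04 and were not called. The remaining 30 ligand probe sets were not called, and ran from -0.62 for a Wnt5a probe set to 0.68 for Wnt9a.

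Rspo1, one of the R-spondins that bind Lgr receptors and protect Frizzled proteins, fell most among the members. It read 0.93, 0.47, -0.10 and -0.32 in unstressed wounds of day 14, and -1.77, -2.56, -0.33 and -0.49 in stressed wounds. The groups did not overlap, but only stressed replicates 1 and 2, both of low Xist, lay far down. The difference was -1.53 (SE 0.42, adjusted p = 0.040, limma), made of -2.86 in the low class and -0.20 in the high class. Only the first was called. The other R-spondins ranged from -0.07 to 0.13 and were not called.

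Among the receptors, Fzd4, which also serves Norrin in vessel growth, read 0.83, 1.55, 0.44 and 0.46 in unstressed and -0.38, 0.03, -0.57 and -0.24 in stressed wounds of day 14 with 1 of its 3 probe sets. The groups did not overlap, and the difference was -1.11 (SE 0.25, adjusted p = 0.017, limma). Its other 2 probe sets differed by -0.52 and -0.07 and were not called. Fzd7 read 0.31, 0.19, 0.12 and 0.44 against -1.03, -1.44, -0.35 and -0.07 with 1 of its 2 probe sets, again without overlap. That difference was -0.99 (SE 0.24, adjusted p = 0.025), but the second Fzd7 probe set leaned the other way, at 0.49 (adjusted p = 0.068), so the gene has no agreed direction. A Fzd5 probe set differed by -1.11 (adjusted p = 0.066) and 1 of 6 Fzd3 probe sets by -0.64 (0.064). With the replicate number as a block, which treats same-numbered arrays as pairs, both were called in limma, at adjusted p of 0.0071 and 0.031. Such a pairing was not shown.

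With 1 of its 2 probe sets Axin2 read -0.36, -0.40, 0.27 and -0.60 in unstressed and 0.55, 0.47, -0.03 and 0.42 in stressed wounds of day 14. The groups overlapped through 1 array of each, replicate 3 in both, and the difference of 0.62 (SE 0.19, adjusted p = 0.056, limma) missed the threshold. Among arrays of low Xist it was 0.89 and called, and among those of high Xist it was 0.35 and not. The other Axin2 probe set differed by 0.01. Lrp5 differed by -0.12, and the Lrp6 probe sets by -0.53 and 0.32. Wif1, a soluble Wnt binder, differed by -0.76 over all arrays (adjusted p = 0.65), by -3.27 in the low class, where it was called, and by 1.76 in the high class, where it was not.

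**Figure D2:**
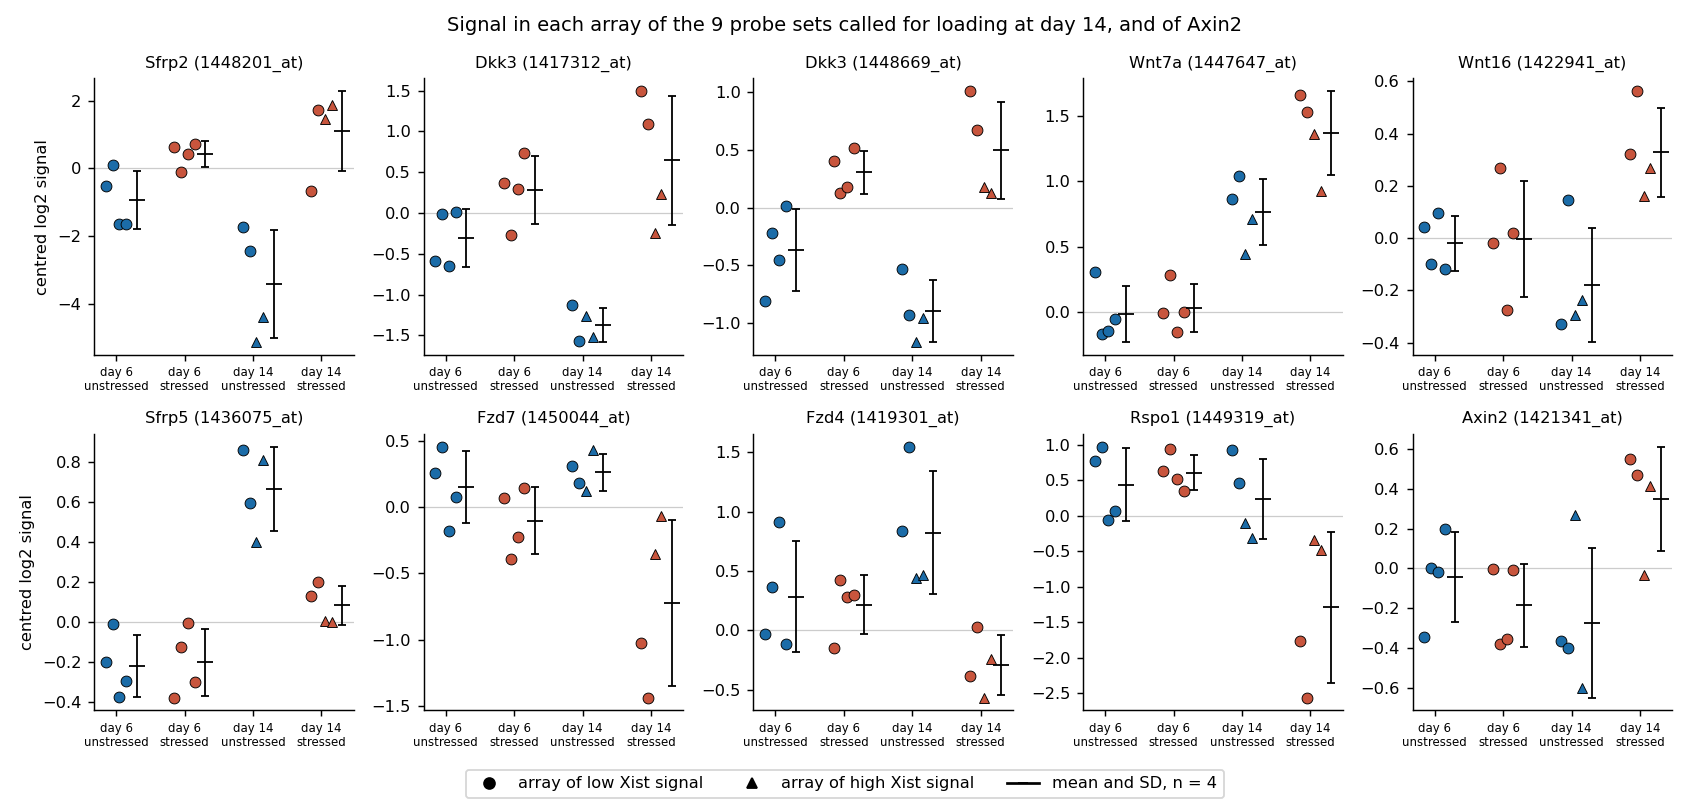
Centred log2 signal of each array for the 9 probe sets called for loading at day 14 and for Axin2, in the 4 groups (blue unstressed, red stressed), with circles for arrays of low Xist and triangles for arrays of high Xist; the bar is the mean with its SD over 4 arrays. In Sfrp2 the unstressed arrays of day 14 lie between -5.13 and -1.72, and in Rspo1 only 2 stressed arrays of day 14, at -1.77 and -2.56, lie far below the rest.

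The calls of day 14 varied in how much they rested on single arrays and on the fit. With only the 8 arrays of day 14 in the fit 0 were called in limma, where 0.349% of all probe sets were, and Sfrp2 and Dkk3 then had adjusted p of 0.066, 0.059 and 0.052. With quantile normalization only Sfrp2 (0.014) and the first Dkk3 probe set (0.032) were called, 2 higher and 0 lower, where 1.04% of all probe sets were. With the replicate block, Wnt16 (0.060), Wnt7a (0.056) and Rspo1 (0.077) were lost and 8 were called, 3 higher and 5 lower, where 6.26% of all probe sets were. Array weights called 15, where 14.7% of all probe sets were. The day 14 arrays alone with the Xist class as a term, a fit added after seeing the data, called 5, where 3.3% of all probe sets were. Leaving out unstressed replicate 1 or stressed replicate 1 or 2 of day 14 each left 5 called, and leaving out stressed replicate 4 gave 14. The shares of all probe sets in these fits are not given, so the swing is not shown to be particular to the members. Sfrp2, both Dkk3 probe sets, Fzd4 and Sfrp5 stayed called whichever array was left out, with adjusted p up to 0.049. Fzd7 was lost without stressed replicate 1 or 2 or unstressed replicate 1 or 4 of day 14 (up to 0.078), Rspo1 without any of 9 arrays (up to 0.13), Wnt16 without any of 8 (up to 0.13) and Wnt7a without any of 12 (up to 0.14), each including unstressed replicate 1 and stressed replicates 1 and 2 of day 14.

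**Figure D3:**
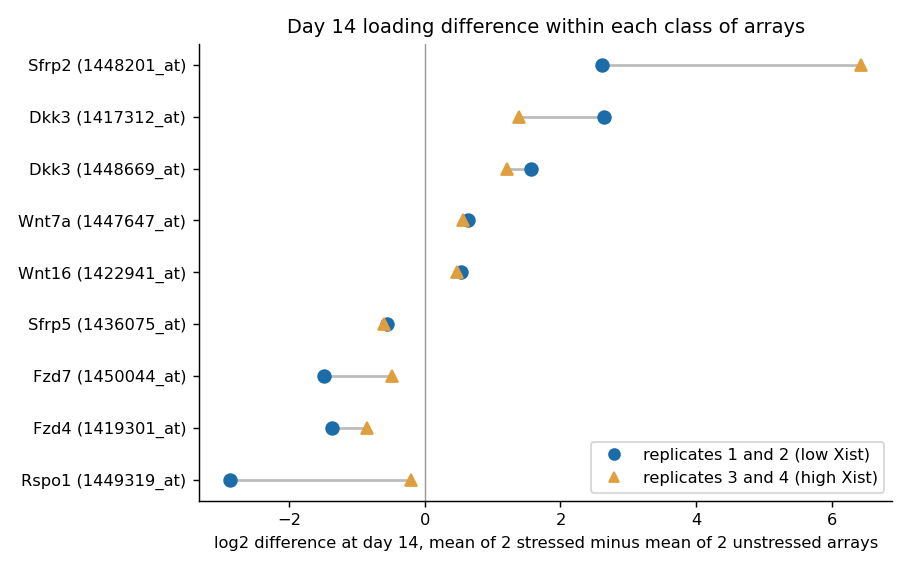
Loading difference at day 14 (log2 scale, mean of 2 stressed minus mean of 2 unstressed arrays) of the 9 called probe sets, for replicates 1 and 2 (low Xist, circles) and replicates 3 and 4 (high Xist, triangles). All 9 keep their direction in both classes, with the widest gaps at Sfrp2 (2.61 and 6.43) and Rspo1 (-2.86 and -0.20). The difference over all arrays is the mean of the values of the classes, and the 9 were chosen by it. Their shared direction is thus no separate check.

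The classes differed in how many members were called. Among the arrays of low Xist 22 of 85 members were called for loading at day 14, 9 higher and 13 lower, where 18.7% of all probe sets were. Among those of high Xist 4 were called, all higher, where 2.29% of all probe sets were: Sfrp2, both Dkk3 probe sets and 1 of 5 Sfrp1 probe sets. With the class as a term in the fit over all arrays 13 were called, 7 higher and 6 lower, where 11.7% of all probe sets were. Besides the 9, these were 1 Axin2 probe set, the second Fzd7 probe set, Fzd3 and Fzd5. The Wnt11 ligand showed the contrast at the level of 1 gene, with -1.04 in the low class, called there, and 0.06 in the high class.

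Markers of several cell types moved with loading at day 14, and their part in the results for the Wnt genes was not tested. Fibroblast markers were called higher in 10 of 23 probe sets and lower in 0, with array means of -1.68 to -0.53 in unstressed and -0.26 to 0.29 in stressed wounds. Markers of myofibroblasts and matrix deposition were higher in 12 of 21 (-2.01 to -1.33 against 0.09 to 0.81), and macrophage markers in 7 of 11 (-2.43 to -1.31 against -1.04 to 0.01). All 3 lists separated the groups without overlap, as Sfrp2 and Dkk3 did. Adipocyte markers were lower in 9 of 12 probe sets (at least 0.59 in unstressed and at most 0.41 in stressed arrays) and skeletal muscle markers in 11 of 18 (-1.13 to 0.88 against -3.55 to -0.20). The adipocyte mean over stressed replicates 1 and 2, the arrays in which Rspo1 was lowest, was -1.92, against -0.16 over replicates 3 and 4. Hair follicle markers were lower in 3 of 24, with stressed arrays of low Xist at -0.30 to 0.09 and those of high Xist at 1.20 to 1.72. Schwann cell markers were lower in 5 of 14 and higher in 0, and endothelial markers were called in 0 of 10. With loading at day 14, 3.31% of all probe sets were higher and 4.04% lower. Because values are centred, no marker could be read as being at 0.

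Whether loading acted differently at day 14 than at day 6 was tested directly, and no member was called (0 of 85, where 0.00858% of all probe sets were, 3 of 34945). At an unadjusted p under 0.05 there were 16 of 85 members, and 3506 of all 34945 probe sets. Array weights called 4 members (2.48% of all probe sets), namely Dkk3, Rspo1, Fzd4 and Sfrp1. For Sfrp2 the loading difference was larger at day 14 by 3.17 (SE 0.98, adjusted p = 0.30), for the first Dkk3 probe set by 1.43 (SE 0.45, adjusted p = 0.31) and for 1 Axin2 probe set by 0.77 (SE 0.27, adjusted p = 0.35). It was lower at day 14 by -1.71 for Rspo1 (adjusted p = 0.36), -1.37 for Wnt2 (0.45), -1.04 for Fzd4 (0.35) and -0.60 for Sfrp5 (0.29). The calls at day 14 are thus not shown to differ from the values at day 6. With only arrays of low Xist 10 members were called, where 7.87% of all probe sets were, and with only those of high Xist at day 14 there was 1, Sfrp2, where 0.238% were.

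Between day 6 and day 14 many more members changed. In unstressed wounds 36 of 85 were called (42.4%), where 40.2% of all probe sets were. They split into 27 higher at day 14 (31.8%, against 16.8% of all probe sets) and 9 lower (10.6%, against 23.4%). In stressed wounds 32 were called (37.6%, against 45.3%), 22 higher (25.9%, against 18.7%) and 10 lower (11.8%, against 26.6%). The median over the members was 0.22 in both, against -0.05 and -0.07 over all probe sets. With each array centred on its median the stressed split was 28 higher and 6 lower, where 21.1% of all probe sets were higher and 24.4% lower. With quantile normalization it was 24 and 6, where 19.4% of all were higher and 18.8% lower (38.2% in all). With the replicate block 34 unstressed (36% of all probe sets) and 30 stressed calls (41.4%) were made, and with 1 probe set per gene 23 of 45 genes were called in unstressed wounds, where 55% of all genes were. With only arrays of low Xist, 28 of the 36 unstressed and 29 of the 32 stressed calls stayed, and 8 and 3 were lost. With only those of high Xist at day 14, 29 and 18 stayed, and 7 and 14 were lost. How this compares with all probe sets was not tested. The labels give no hybridization batch, so day and any batch of arrays cannot be told apart.

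Of the ligands, Wnt1, the founding member of the family, rose in both conditions. It read -0.09, -0.32, -0.21 and -0.24 in unstressed wounds at day 6 and 0.93, 0.85, 1.39 and 0.93 at day 14. In stressed wounds it read -0.12, 0.32, -0.26 and -0.12 at day 6 and 1.18, 1.17, 1.53 and 1.38 at day 14. No array of day 6 came near any of day 14. The difference was 1.24 without load (SE 0.15, adjusted p = 2.9e-05, limma) and 1.36 with it (SE 0.15, adjusted p = 1.7e-05).

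Wnt1 lies next to Wnt10b on chromosome 15, with no protein-coding gene between them in the RefSeq order. Wnt10b, a ligand of hair follicle growth, rose with it, by 0.74 without load and 0.71 with it (SE 0.11 for both, adjusted p = 0.00017 and 0.00021, limma). Wnt6 and Wnt10a, neighbours on chromosome 1, parted instead. Wnt10a, another ligand of the follicle and the tooth, fell by 0.69 in unstressed and by 0.85 in stressed wounds (SE 0.16 for both). A Wnt6 probe set rose by 0.85 and 0.69, although its other probe set differed by -0.07 and -0.25 and was not called, and the suffix of the first marks probes that may match other transcripts. Wnt9b rose on chromosome 11, by 1.06 and 0.75 with 1 of its 2 probe sets, beside Wnt3, which was not called (-0.14 and -0.30). In the fourth such pair, Wnt3a and Wnt9a, neither was called.

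Wnt5a, the best known ligand of the branches without beta-catenin, rose in both conditions with 3 of its 4 probe sets. With the probe set that differed most without load it read -0.84, -0.90, -0.63 and -0.28 at day 6 and 0.22, 0.80, 1.62 and 0.81 at day 14 in unstressed wounds, where the days did not overlap. In stressed wounds it read -0.58, -1.07, -0.43 and -0.14, then -0.35, 0.84, 0.07 and 0.40, and the days overlapped. The rise was 1.52 without load (SE 0.29, adjusted p = 0.00090, limma) and 0.79 with it (SE 0.29, adjusted p = 0.036), the second lost without any of 5 arrays (adjusted p up to 0.12). The difference between these rises was not called (adjusted p = 0.59). The order was the other way with the probe set that differed most under load. Stressed wounds read -0.27, 0.06, -0.34 and -0.15 at day 6 and 1.05, 0.62, 1.33 and 0.55 at day 14, without overlap. Unstressed wounds read -0.23, -0.52, 0.08 and -0.17, then 0.74, 0.91, 0.67 and -0.03, and the lowest array of day 14 lay among those of day 6. Its rises were 1.06 with load (SE 0.21, adjusted p = 0.0011, limma) and 0.78 without it (SE 0.21, adjusted p = 0.0085), and their difference was not called either (adjusted p = 0.81). The other called probe set rose in both conditions, by 0.73 with load, a call lost without any of 9 arrays.

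Wnt11, which acts in cell polarity, read -0.39, -0.36, -0.25 and -0.13 in unstressed wounds at day 6 and 0.89, 0.94, 1.11 and 0.92 at day 14. In stressed wounds it read 0.03, -0.18, -0.05 and 0.34, then 0.01, -0.27, 0.90 and 1.25. Without load the days were far apart, while with load only replicates 3 and 4 of day 14, the arrays of high Xist, lay above those of day 6. The differences were 1.24 (SE 0.25, adjusted p = 0.0013, limma) and 0.44 (adjusted p = 0.17). Their own difference, -0.81, was not called (adjusted p = 0.46).

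Wnt7a rose by 0.78 without load and 1.33 with it (SE 0.17 for both, adjusted p = 0.0026 and 5.4e-05), but only 1 of its 3 probe sets did so in unstressed wounds and 2 in stressed ones. Wnt8a rose by 0.46 and 0.76, and Wnt8b, with the probe set of its widest difference, by 0.79 and 0.76. Wnt4 fell with both probe sets in both conditions, by 1.13 without load and by 0.79 with it in the probe set that fell more, and unstressed replicate 3 of day 14 lay high, at 0.25 and 0.29, among its fellows. Wnt2 fell in stressed wounds by 1.68 (SE 0.42, adjusted p = 0.0046, limma), from 1.59, 2.52, 0.47 and 0.57 at day 6 to -1.23, 0.02, 0.02 and -0.37 at day 14. In unstressed wounds it differed by -0.31, and the difference between the conditions was not called (adjusted p = 0.45). Over all ligand probe sets, 13 rose and 3 fell without load and 12 rose and 4 fell with it, of 32. Among all probe sets tested, 16.8% rose and 23.4% fell without load, and 18.7% and 26.6% with it.

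**Figure D4:**
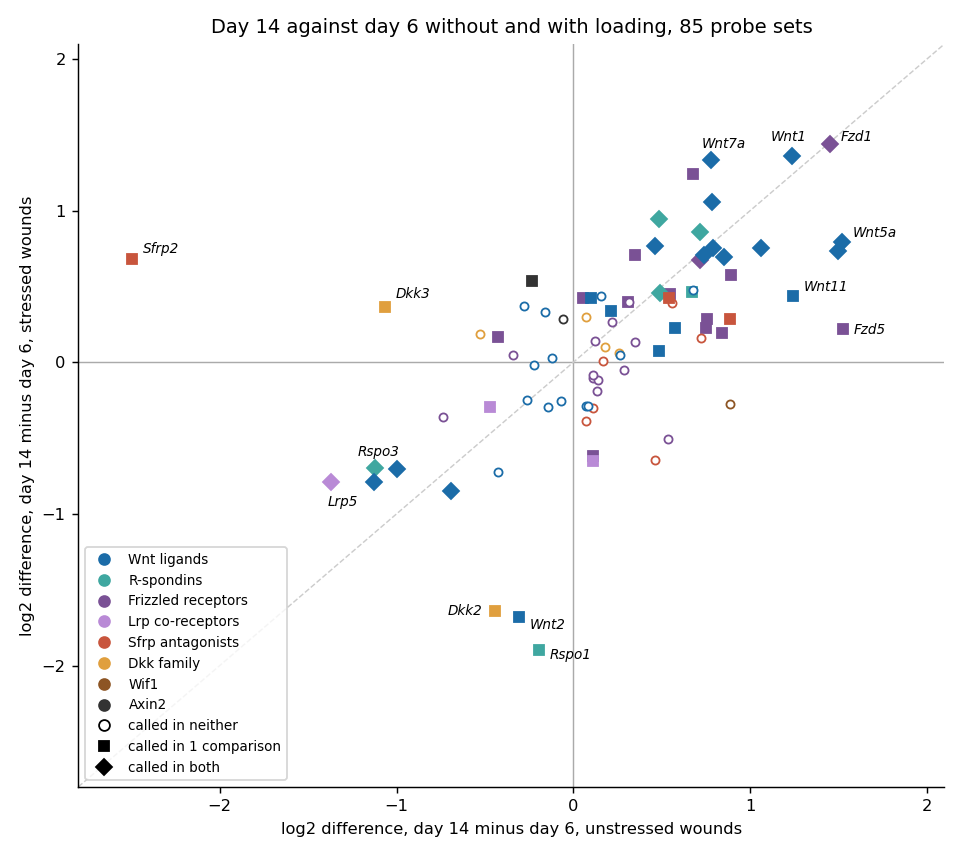
Difference between day 14 and day 6 (log2 scale) of the 85 probe sets in unstressed wounds (horizontal axis) and stressed wounds (vertical axis), coloured by family; diamonds were called in both, squares in 1 and open circles in neither comparison, and the dashed line marks equal differences. Fzd1 (1.45 and 1.44) and Wnt1 (1.24 and 1.36) lie near the line, while Sfrp2 (-2.49 and 0.68) and Rspo1 (-0.19 and -1.90) lie far from it.

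Of 6 R-spondin probe sets 4 rose and 1 fell without load, and 3 rose and 2 fell with it. Among all probe sets tested, 16.8% rose and 23.4% fell without load, and 18.7% and 26.6% with it. Rspo4, best known from the nail, rose by 0.48 without load (adjusted p = 0.032, lost without any of 6 arrays) and by 0.95 with it (SE 0.17, adjusted p = 0.00048, limma). Rspo2, which acts in limb and hair growth, rose by 0.49 and 0.46 with 1 probe set, and by 0.67 with the other in unstressed wounds, while its stressed difference of 0.46 was not called. Rspo3 had probe sets that opposed each other in both conditions, with 0.72 and 0.86 for 1 and -1.12 and -0.70 for the other, all called. Rspo1 fell in stressed wounds by 1.90 (SE 0.42, adjusted p = 0.0023), from 0.63, 0.94, 0.52 and 0.36 at day 6 to -1.77, -2.56, -0.33 and -0.49, without overlap. In unstressed wounds it differed by -0.19, not called, and the difference between the conditions was not called either (adjusted p = 0.36).

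Of 26 probe sets of Frizzled receptors 8 were called higher, 1 lower and 17 neither way without load, and 6 higher, 1 lower and 19 neither way with it. The shares of all probe sets were 16.8% higher and 23.4% lower without load, and 18.7% and 26.6% with it. Fzd1, a receptor of the beta-catenin branch, read -0.86, -0.16, -1.68 and -0.37 at day 6 and 0.57, 0.80, 0.55 and 0.82 at day 14 in unstressed wounds with 1 of its 2 probe sets. In stressed wounds it read -0.22, -1.03, -0.30 and 0.07, then 1.12, 1.76, 0.29 and 1.12. The days did not overlap in either, and the rises of 1.45 and 1.44 were nearly equal (SE 0.33 for both, adjusted p = 0.0030 and 0.0028, limma). Its other probe set rose by 0.89 without load and differed by 0.58 with it. Fzd10 rose by 0.71 and 0.67 with 1 of 2 probe sets. Fzd6, which orients hairs in the mouse, rose in stressed wounds by 1.24 and 0.71 with 2 of its 3 probe sets, and was not called without load (0.68 and 0.35).

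With 1 of its 2 probe sets Fzd5 read -0.44, -0.40, -0.73 and 0.05 at day 6 and 0.51, 0.69, 1.81 and 1.57 at day 14 in unstressed wounds. The days did not overlap there, and the rise was 1.53 (SE 0.35, adjusted p = 0.0033, limma), against 0.22 in stressed wounds, not called. Among the unstressed arrays of day 14 those of high Xist lay highest. The other Fzd5 probe set differed by 0.29 and -0.05. Of 6 Fzd3 probe sets 2 rose without load, by 0.75 and 0.76, and another rose with load, by 0.40. Fzd4 rose in unstressed wounds with 2 of 3 probe sets (0.84 and 0.55), Fzd8 fell there by 0.43, and Fzd7 was called both ways in stressed wounds, 0.42 with 1 probe set and -0.62 with the other.

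A promoter window each of Fzd1 and Wnt11 is printed because these genes rose by over 1 on the log2 scale in unstressed wounds and the window held the core letters bound by TCF/LEF factors. Both are from RefSeq, build GRCm38.p6, 5' to 3', from 250 bases before to 50 after the start of the gene. Fzd1 lies at chr5:4758167-4758466 on the minus strand, and Wnt11 at chr7:98834862-98835161 on the plus strand. RefSeq gives a second Wnt11 window, chr7:98838595-98838894, which held none of the motifs searched and is not shown. Capitals mark CTTTGA, the TCF/LEF core, here on the opposite strand as TCAAAG, and TATAAA, the TATA box.
Fzd1: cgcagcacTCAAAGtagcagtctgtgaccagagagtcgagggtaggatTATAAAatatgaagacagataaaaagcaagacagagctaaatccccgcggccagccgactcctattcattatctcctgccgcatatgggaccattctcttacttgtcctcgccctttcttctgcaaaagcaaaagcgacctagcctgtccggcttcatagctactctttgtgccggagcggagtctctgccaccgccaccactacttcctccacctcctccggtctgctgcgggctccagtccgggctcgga
Wnt11: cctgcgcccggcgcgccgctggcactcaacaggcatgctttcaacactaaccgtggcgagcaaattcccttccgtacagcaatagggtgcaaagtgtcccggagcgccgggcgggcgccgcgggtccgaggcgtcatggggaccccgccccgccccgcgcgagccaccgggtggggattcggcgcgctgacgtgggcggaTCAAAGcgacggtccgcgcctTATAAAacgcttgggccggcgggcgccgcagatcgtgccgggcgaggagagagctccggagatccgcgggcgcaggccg

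In Wnt11 both matches lie within 50 bases before the start, at -50 and -29, and in Fzd1 they lie at -242 and -202. RefSeq windows were found for 29 of the 45 genes, 32 windows in all, and were searched on both strands. CTTTGA was in 4 of them (Dkk1, Fzd1, Wnt5b and Wnt11) and in 16% of all 32851 windows. GGAATG, the core bound by TEAD factors, was in 1 (Wnt5b), against 14.7% of all, and TATAAA in 5, against 13.6%. The member windows were rich in G and C, with a median of 69.5% against 52.7%. A match is no site.

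Among the co-receptors, Lrp5 read 0.02, 0.62, 1.35 and 0.81 at day 6 and -0.40, -0.93, -0.17 and -1.18 at day 14 in unstressed wounds. The days did not overlap, and it fell by 1.37 (SE 0.30, adjusted p = 0.0025, limma). In stressed wounds it fell by 0.79 (adjusted p = 0.045, lost without any of 9 arrays, with adjusted p up to 0.15). Lrp6 fell by 0.47 with 1 probe set without load and by 0.65 with the other under load, each in 1 of 2 probe sets and each lost on leaving out single arrays.

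Of 9 probe sets of Sfrp antagonists 2 were called higher and 1 lower without load and 0 with it, and of 6 of the Dkk family 1 was called lower in each condition. Over all 16 arrays the difference between the conditions was not called for any of them (adjusted p of at least 0.29 and 0.31, limma). The shares of all probe sets called over time were 16.8% higher and 23.4% lower without load, and 18.7% and 26.6% with it. Sfrp2 fell by 2.49 in unstressed wounds (SE 0.69, adjusted p = 0.010, limma), from -0.53, 0.11, -1.64 and -1.63 at day 6 to -1.72, -2.45, -5.13 and -4.38. The days just failed to overlap, between -1.64 and -1.72. In stressed wounds it differed by 0.68, not called. The first Dkk3 probe set likewise fell by 1.07 (SE 0.32, adjusted p = 0.015) without load and differed by 0.36 with load, not called. Among arrays of low Xist the fall of Sfrp2 was not called (adjusted p = 0.16), that of Dkk3 was (0.012), and with quantile normalization neither was (0.28 and 0.30). Sfrp5 rose in unstressed wounds with both probe sets, by 0.89 (SE 0.13, adjusted p = 0.00011) and 0.54, and was not called in stressed wounds.

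Dkk2, which binds the Lrp co-receptors, fell in stressed wounds by 1.64 (SE 0.48, adjusted p = 0.012, limma), from 0.23, 0.32, 0.26 and 0.37 at day 6 to -0.91, -2.22, -1.20 and -1.04. The days did not overlap, and day 6 was tight. In unstressed wounds it differed by -0.44, not called, and the arrays of day 14 spread from -2.06 to 0.94. Axin2 rose with 1 of its 2 probe sets in stressed wounds by 0.53 (SE 0.19, adjusted p = 0.030, lost without any of 5 arrays, up to 0.082) and differed by -0.23 in unstressed wounds.

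Called changes that both conditions shared ran the same way in 20 members, 15 higher and 5 lower, and the opposite way in 0. They made up 55.6% of the unstressed and 62.5% of the stressed calls, against 73.1% and 64.7% over all probe sets. The signs of the 2 differences matched in 71.8% of members and 83.4% of all probe sets. The unstressed and stressed series share no arrays.

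**Figure D5:**
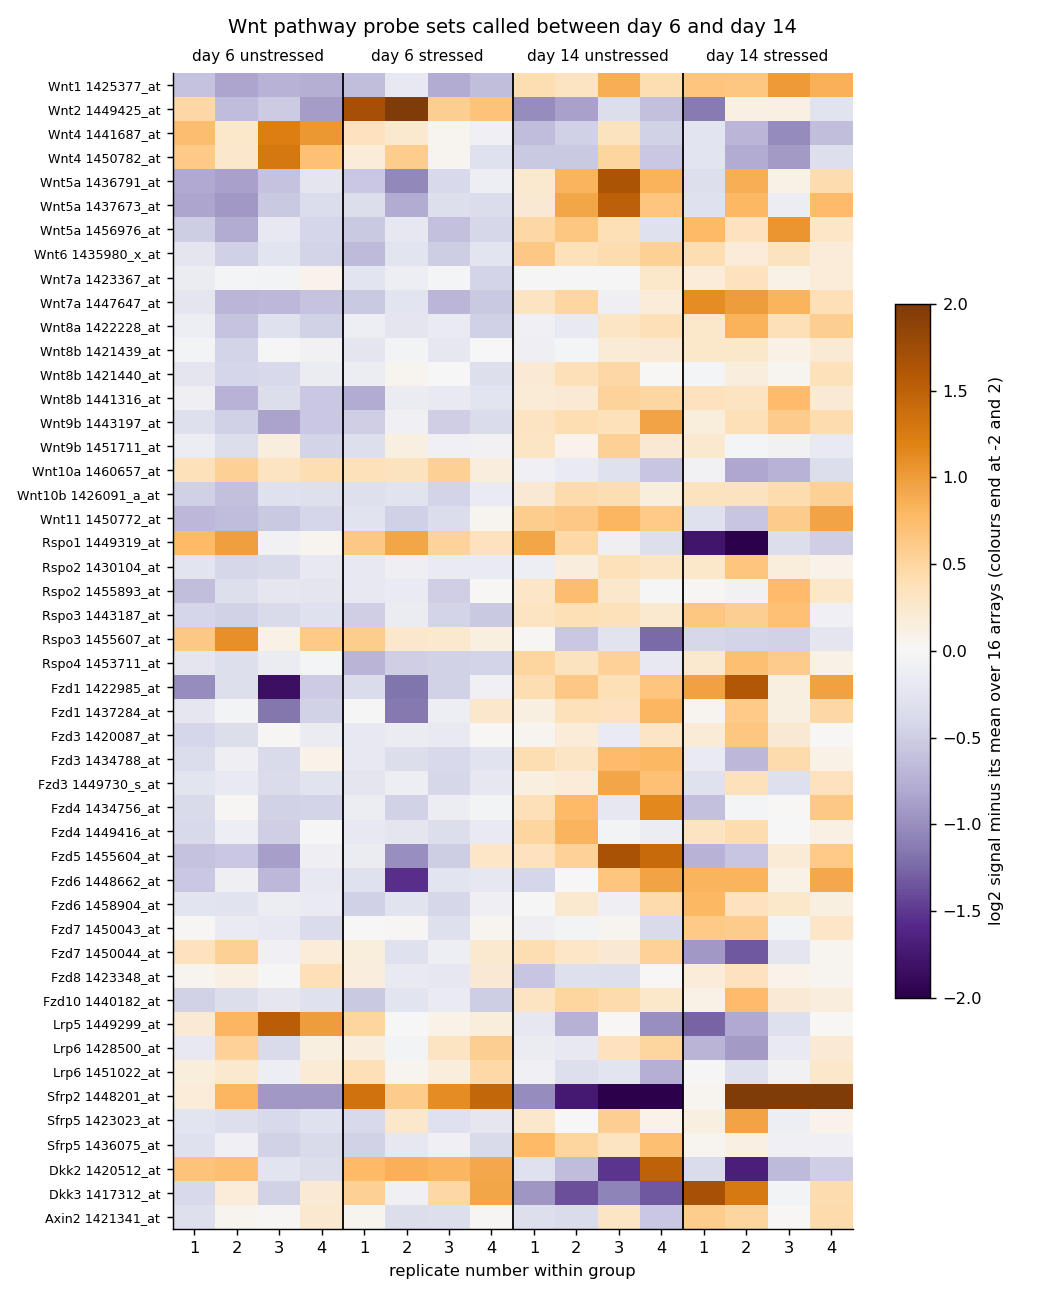
Signal of each of the 16 arrays, less the mean of the probe set over all arrays (log2 scale), for the 48 probe sets of 31 genes called between day 6 and day 14 in either condition, with 1 column per array and 1 row per probe set. Colours end at -2 and 2, beyond which values of 3 probe sets lie; Wnt1 and Wnt10b are purple (below the mean) on all arrays of day 6 and orange (above it) on all of day 14, while Sfrp2 is below its mean on all unstressed arrays of day 14.

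Cell type markers also moved with time. For comparison, 16.8% of all probe sets were higher and 23.4% lower without load, and 18.7% and 26.6% with it. In unstressed wounds hair follicle markers rose in 17 of 24 probe sets and fell in 0, with array means of -0.99 to -0.07 at day 6 and at least 0.96 at day 14. Macrophage markers fell in 10 of 11 (-0.29 to 0.64, then -2.43 to -1.31) and fibroblast markers in 10 of 23, with 1 higher (-0.47 to 0.02, then -1.68 to -0.53). Suprabasal keratinocyte markers fell in 7 of 13 (0.22 to 0.88, then at most -0.37). Markers of myofibroblasts and matrix deposition fell in 11 of 21, with 1 higher, and adipocyte markers rose in 5 of 12 and fell in 0. In stressed wounds hair follicle markers rose in 9 of 24 and fell in 4, and muscle markers fell in 14 of 18 (-0.04 to 0.41, then -3.55 to -0.20). Macrophage markers fell there in 9 of 11 (0.28 to 0.78, then -1.04 to 0.01), suprabasal keratinocyte markers in 7 of 13 (-0.10 to 0.21, then -1.21 to -0.40) and fibroblast markers in 8 of 23, with 1 higher (0.36 to 0.43, then -0.26 to 0.29). Adipocyte markers fell in stressed wounds in 4 of 12 and rose in 0. Markers of myofibroblasts and matrix deposition fell there in 3 of 21 and rose in 2. The part of the cell type markers in the changes of the Wnt genes was not tested.

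Of the 45 genes, 13 were called in no comparison. They were the ligands Wnt2b, Wnt3, Wnt3a, Wnt5b, Wnt7b and Wnt9a, the receptors Fzd2 and Fzd9, and the antagonists Sfrp1, Sfrp4, Dkk1, Dkk4 and Wif1. Their spread was uneven. Dkk1, the classic Lrp5 and Lrp6 inhibitor, stayed between -0.20 and 0.26 in all 5 comparisons, and Fzd9 between 0.04 and 0.27. Wif1 ranged from -1.17 to 0.89, with arrays of day 14 spread from -2.11 to 2.21. Closest to the threshold were Dkk4 (0.30, adjusted p = 0.051) and 1 Wnt9a probe set (-0.73, adjusted p = 0.053), both over time in stressed wounds.

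Other genes of the pathway were taken from lists of Wnt secretion and other receptors, other antagonists, the beta-catenin cascade, the polarity and calcium branch, and known targets. The lists held 97 symbols, among them the members Dkk1 and Axin2, and Ccn4 and Ccn5 under both an old and a new symbol. With members left out, 90 genes were measured, with 236 probe sets. Loading at day 6 called 0 of them. At day 14 12 probe sets were higher with loading (5.08%, against 3.31% of all probe sets) and 11 lower (4.66%, against 4.04%). Cthrc1, a secreted collagen-region protein that binds Wnt and Frizzled, rose by 5.25 (SE 0.31, adjusted p = 7.6e-07, limma), and Ccn4, a matricellular target of the pathway, by 3.54 (SE 0.42, adjusted p = 0.00030). Gpc6, a glypican, rose by 1.87 and Cd44, a hyaluronan receptor, by 1.70. Shisa2, which holds Frizzled inside the cell, fell by 2.08, the transcription factor Tcf7l2 by 1.06, the co-repressor Tle4 by 0.94 and Nkd2, a feedback inhibitor, by 0.93. Wls, which carries Wnts to the surface, rose by 0.91 with 1 of 4 probe sets called, all 4 positive. Cthrc1 alone was called for the difference between the days, larger at day 14 by 4.35 (SE 0.44, adjusted p = 0.0015).

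Over time 41 probe sets of these lists were higher (17.4%, against 16.8% of all probe sets) and 43 lower (18.2%, against 23.4%) in unstressed wounds. In stressed wounds 37 were higher (15.7%, against 18.7%) and 46 lower (19.5%, against 26.6%). In unstressed wounds the largest rises were those of Bambi (3.60), a decoy receptor that beta-catenin can switch on, Lef1 (1.98), Nkd2 (1.79) and Shisa2 (1.70). Lower there were Cthrc1 (-3.89), Dkkl1 (-2.79), a Dickkopf-like protein, Ccn4 (-2.68) and Sostdc1 (-2.24), a Wnt and BMP antagonist. In stressed wounds Bambi rose by 2.06, Ctnnb1, which encodes beta-catenin, by 2.01, Apcdd1, a Wnt inhibitor, by 1.99 (2 of 6 probe sets positive) and Nkd2 by 1.54. Lower there were Tcf7l2 (-1.96), Dkkl1 (-1.86) and Camk2b (-1.78), a calcium-dependent kinase. Lgr6, an R-spondin receptor, was called both ways, at -1.89 and 0.59 with its 2 probe sets.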

How the data were processed

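The deposited values were read as log2 signals made by the authors in GeneSpring GX 11.0, per the series design text, and they are centred per probe set. How background was removed and arrays were normalized, and which log base was used, is not given in the sources used here; natural logs would make the differences larger. Probe sets were named from the platform annotation: 34945 of 45101 had 1 symbol and were tested, 932 had several, and 9160 had none apart from 64 controls. No filter on low values was possible.

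Each probe set was fitted with limma 3.58.1 (lmFit and eBayes) in R 4.3.3 with 1 mean for each of the 4 groups and a spread pooled over 16 arrays. Loading at each day, the difference between days and time in each condition were 5 contrasts, tested two-sided, with Benjamini-Hochberg adjustment over all 34945. The fit was also run on simulated data with the SD of each probe set taken from the real fit. That SD was the same on every array, which may differ from the real arrays. Tables used pandas 2.3.3 and numpy 2.4.6 under Python 3.11.15, and plots matplotlib 3.10.9. Precision is limited by the number of arrays. The signals of an array spread more over the probe sets at day 14 (SD 0.55 to 0.77) than at day 6 (0.26 to 0.41). The pooled spread may thus be too small for loading at day 14 and too large for loading at day 6. Part of the contrast in calls between the days may reflect this.

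The members, gene lists, marker lists and tests were chosen with earlier results of these data known. Genes named with values were the 30 member genes with the smallest adjusted p in any contrast, Axin2, Lrp5, Lrp6, the ranges of uncalled genes, and from the pathway lists the 4 largest called differences each way; Wnt16, Wls and single uncalled members were named after their values were seen. Alternatives were other normalizations, filters and units of test, array weights, fewer arrays, the Xist class, 1 array left out and a replicate block. Same-numbered arrays of day 14 deviated together from their group means (correlations 0.25, 0.17, 0.26 and 0.14). Only numbers 1 and 3 were each other's best partner. Every best partner there was of the same Xist class, so pairing by number and class cannot be told apart. Same-numbered arrays of day 6 (-0.42 to -0.0013) and of different days (-0.16 to 0.087) did not deviate together. The smallest SD of the difference between replicates was 0.238, so none was a duplicate.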

Additional observations from a re-analysis of the deposited data

Results flagged for a closer look

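In 11 of 204 groups of 4 arrays, over the 51 probe sets called in any comparison, 1 array lay far from the other 3, and chance flags about 1 in 20 groups. The values are the gap to the nearest array as a share of the range of the group, and genes with several probe sets are given for 1 of them. At day 6 this held in unstressed wounds for replicate 2 of Wnt8b (lowest, 0.878) and of Fzd4 (highest, 0.852). In stressed wounds of day 6 it held for replicate 2 of Wnt5a (lowest, 0.934) and of Fzd6 (lowest, 0.940), and for replicate 1 of Rspo4 (lowest, 0.831).

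At day 14 replicate 3 of the unstressed wounds was highest for Wnt1 (0.849) and Wnt4 (0.988), and replicate 4 was highest for Wnt7a (0.966) and Wnt9b (0.863). In stressed wounds replicate 1 was lowest for Sfrp2 (0.835), at -0.66 against 1.46 to 1.88, and replicate 3 was lowest for Fzd6 (0.876).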

How the results depend on the processing

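Called members were recomputed under each alternative in 2062 comparisons: 1809 kept direction and call, 253 kept the direction but lost the call, and 0 reversed. Most of these fits reuse nearly the same values. A reversal of a called difference was thus unlikely from the start, and the 0 is no separate check. For loading at day 6, where 0 were called, 4 were called with quantile normalization and 4 with array weights. For loading at day 14, where 9 were called, 15 were with array weights, 2 with quantile normalization, 0 with only the day 14 arrays, 5 with these and the Xist class as a term (chosen after seeing the data), 22 with only arrays of low Xist and 4 with only those of high Xist. For the difference between days, where 0 were called, 4 were with array weights, 10 with low Xist only and 1 with high Xist only. For time in unstressed wounds 23 of 45 genes were called with 1 probe set per gene, against 36 of 85 probe sets. The probe set kept was that of the widest interquartile range over these same arrays, so the counts cannot be compared directly. The cause of these changes was not tested. Leaving out 1 array gave 0 and 0 for loading at day 6, 5 to 14 at day 14, 0 and 0 for the difference, 30 to 37 for time in unstressed and 22 to 33 in stressed wounds. Shares of all probe sets are not given for these fits. With the replicate block, which treats same-numbered arrays as pairs, 0, 8, 0, 34 and 30 were called. Apart from the calls of day 14 given above, 2 unstressed and 3 stressed time calls were lost and 1 stressed call was gained. Under that block, day 6 pairs have no basis, and at day 14 pairing by number cannot be told from the Xist class. The centred values hold no signal over background, so members that were never above background cannot be told from members that did not change.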
